A study of Mus musculus with 10 samples.

Results

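Genes of the ATP-dependent chromatin remodelers were examined in leukemic mouse spleens with and without deletion of Sirt1. The set was chosen by symbol. It holds every listed gene whose symbol begins with Smarc, with Chd and a digit, or with Arid and a digit from 1 to 5, together with Bptf, Pbrm1, Brd7, Brd9, Ino80, Ep400, Atrx and Srcap. A member also had to reach 10 normalized counts in at least 5 of the 10 libraries. Of 42 genes matched by symbol, 40 passed, out of 13567 genes of the whole table that passed the same filter. Below the limit lay Smarca1, at 0 to 3.63 normalized counts, and the pseudogene Smarca5-ps, at 5.24 to 14.6, with 1 library above 10. Just above it lay Chd5, at 9.41 to 38.1, and Arid5b, at 11.4 to 55.4. Of the 40, 39 reached 10 in all 10 libraries, Chd5 being the exception. The row Chd3os matched by its symbol only. It had no annotated transcript length, position or gene type here and was assigned to no family.

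Remodelers use ATP to slide, evict or exchange nucleosomes. The SWI/SNF complexes, called BAF in mammals, share an ATPase and a core. They come as canonical BAF with ARID1A or ARID1B, as PBAF with ARID2, PBRM1 and BRD7, and as a noncanonical form with BRD9. ISWI complexes space nucleosomes, CHD proteins recognise histone tails or form part of the NuRD deacetylase complex, and the INO80 family exchanges histone variants. In thymocytes and T cells these complexes are known for controlling access to lineage genes, and several of their subunits are mutated in leukemia. Most remodeler proteins are large, and their transcripts are long.

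The 10 spleens came from C57BL/6 mice given a sub-lethal dose of radiation and then an intravenous graft of T-ALL (acute lymphoblastic leukemia of T cell origin) carrying a conditional Sirt1 allele. The control group, 5 libraries, received corn oil alone. The Sirt1 deleted group, 5 libraries, received 3 mg of tamoxifen per mouse in corn oil by intraperitoneal injection. Thus both groups carry the conditional allele, and drug and deletion cannot be told apart, because no group received tamoxifen without the deletion. The labels do not give the Cre line, the age of the mice or which primary leukemia each recipient received, and nothing says whether the libraries of a group came from separate leukemias. The p-values therefore measure the spread between these samples only.

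Values are normalized counts, that is, reads per gene scaled by the authors so that libraries can be compared. Totals differed little between libraries. Small values rose in nearly even steps, from which 100 normalized counts correspond to about 61.9 to 131 reads, depending on the library. Sirt1 ranged from 1126 to 1348 in control and from 709.6 to 1071 in deleted libraries. Its mean fell from 1233 ± 97.6 to 918 ± 155 (-0.44, adjusted p = 0.0125; -0.26 after the correction described below), so Sirt1 RNA remained in every deleted library. T cell markers such as Thy1 (50965 in control, 56760 in deleted libraries) and Lck (34610.1 and 35150.4) were abundant in both groups. Of 14 such markers, 1 was lower and 2 were higher, against 17.5% and 14.5% of all genes tested. Rag1, which starts receptor gene rearrangement, fell from 24641 to 15608 (-0.66, adjusted p = 0.00797), while Cd3g (0.27, adjusted p = 0.0185) and Ptcra, the pre-T cell receptor alpha chain (0.36, adjusted p = 0.0167), rose. After the correction described below, 1 of the 14 was lower and 0 were higher, so neither Cd3g nor Ptcra was called higher. Summed markers of other cells overlapped between groups, except those of monocytes and macrophages. Of 11 B cell markers 1 was lower and 3 higher, and of 13 monocyte and macrophage markers 6 were lower and 1 higher. Of 11 neutrophil markers 0 were lower and 2 higher, and of 12 erythroid markers 3 were lower and 0 higher. After the correction described below, 0 of the 11 B cell markers were lower and 2 higher. Of the 13 monocyte and macrophage markers 7 were then lower and 0 higher. The 11 neutrophil markers gave 0 lower and 0 higher, and the 12 erythroid markers 6 and 0. Over all corrected genes, 6.07% were lower and 8.29% higher. The summed level of 11 B cell markers was 307 to 398 in control and 351 to 564 in deleted libraries, or 0.000994% and 0.00126% of all counts on average. That of 13 monocyte and macrophage markers was 11340.1 to 16329 and 7008 to 10629, that of 11 neutrophil markers 1719 to 4487 and 2194 to 8904, and that of 12 erythroid markers 427752 to 544161 and 211847 to 477501. Every tested marker had passed the filter on low values, so none could stand at 0 on average. The tested markers therefore cannot show whether a cell type was absent. Of 12 B cell markers listed, 11 were tested, and Ebf1 was not. The part of these other cells in the results below was not tested.

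Of the 40 remodeler genes, 17 were lower, 2 were higher and 21 did not pass in the comparison of Sirt1 deleted with control libraries (limma, adjusted p under 0.05 over all genes tested). Over all 13567 genes, 17.5% were called lower and 14.5% higher. The median log2 difference of the members was -0.17, against 0.00097 over all genes tested. The 17 lower genes included Bptf, the large subunit of the ISWI complex NURF, the PBAF subunit genes Pbrm1 and Arid2, the CHD genes Chd1, Chd2, Chd4, Chd7 and Chd9, and all 3 ATPase genes of the INO80 family. The 2 higher genes were Smarcb1 and Smarcd2, both core subunits of SWI/SNF. Bulk RNA cannot tell fewer expressing cells from less RNA per cell.

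**Figure D1:**
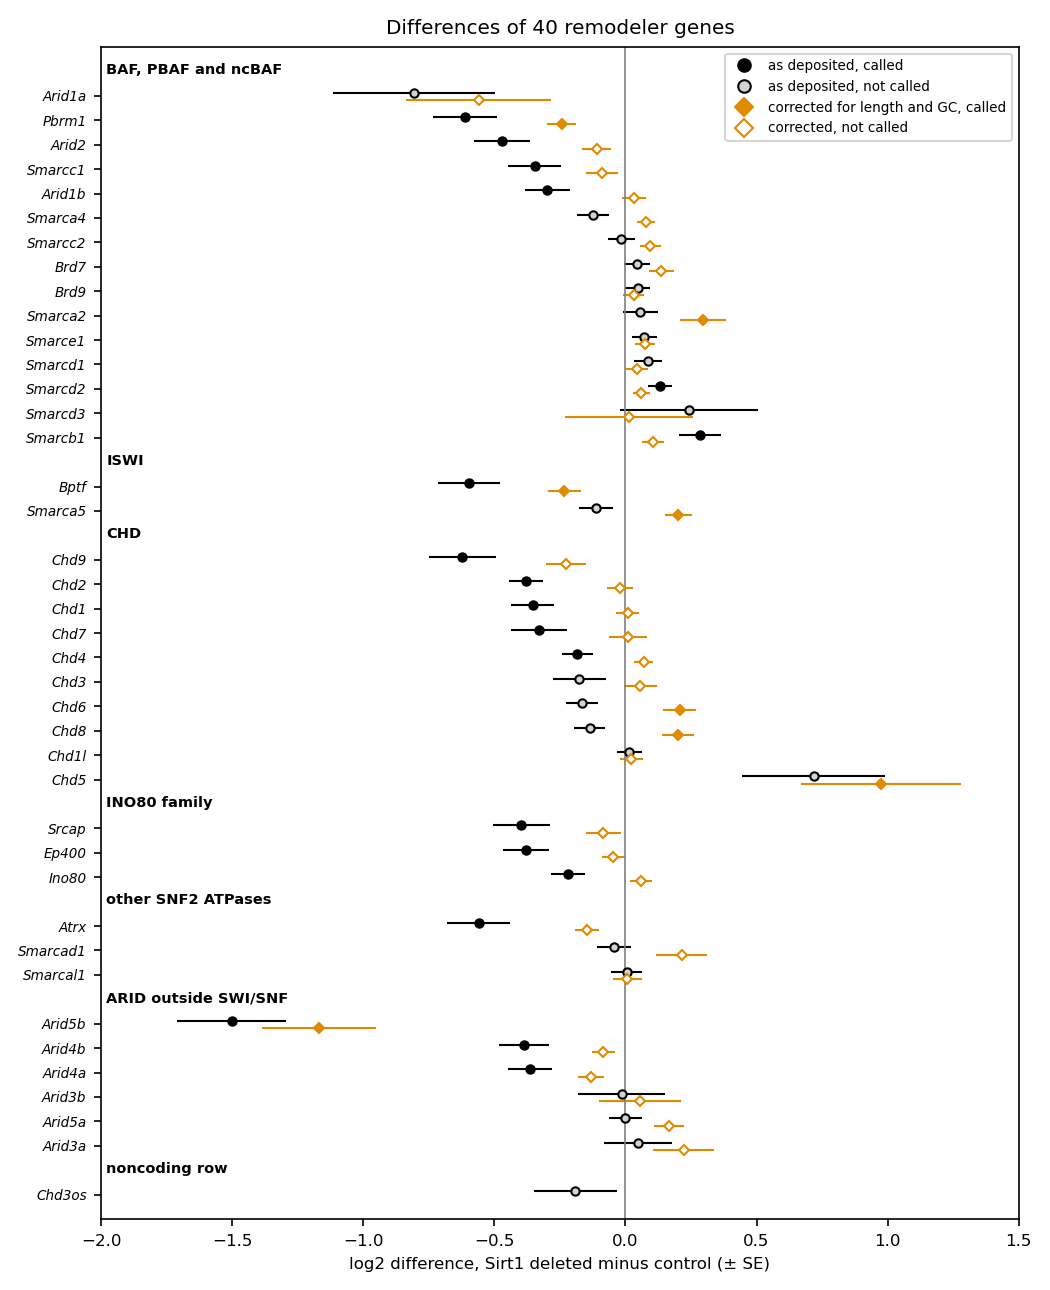
Log2 difference (Sirt1 deleted minus control, x axis, bars ± SE) of each of the 40 genes, grouped by family, from the deposited values (circles) and after correction for transcript length and GC content (diamonds); filled symbols passed an adjusted p of 0.05. As deposited, 17 genes were lower and 2 higher, and after correction 3 of 39 were lower and 5 higher. The row marked as noncoding is Chd3os, whose type was not annotated here.

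The calls followed transcript length. All 17 lower genes were among the 28 members in length quintile 5, the longest transcripts (over 4946 bases), and neither higher gene was. In that quintile 60.7% of members were called lower, against 51% of all 2661 tested genes of such length, and 0 members were called higher, against 1.77%. The members' share thus lay near the background for long transcripts. Of the 11 shorter members with a known length, 0 were lower and 2 were higher. Smarcb1 belongs to length quintile 1, where 40.8% of all tested genes were called higher, and Smarcd2 to quintile 3, where 8.39% were. Differences and lengths of the 39 members with a length were correlated with a Spearman rho of -0.71, against -0.58 over 13304 tested genes. Genes share their libraries and are not independent replicates. The members' median transcript was 6354 bases long, against 3001 over all genes.

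**Figure D2:**
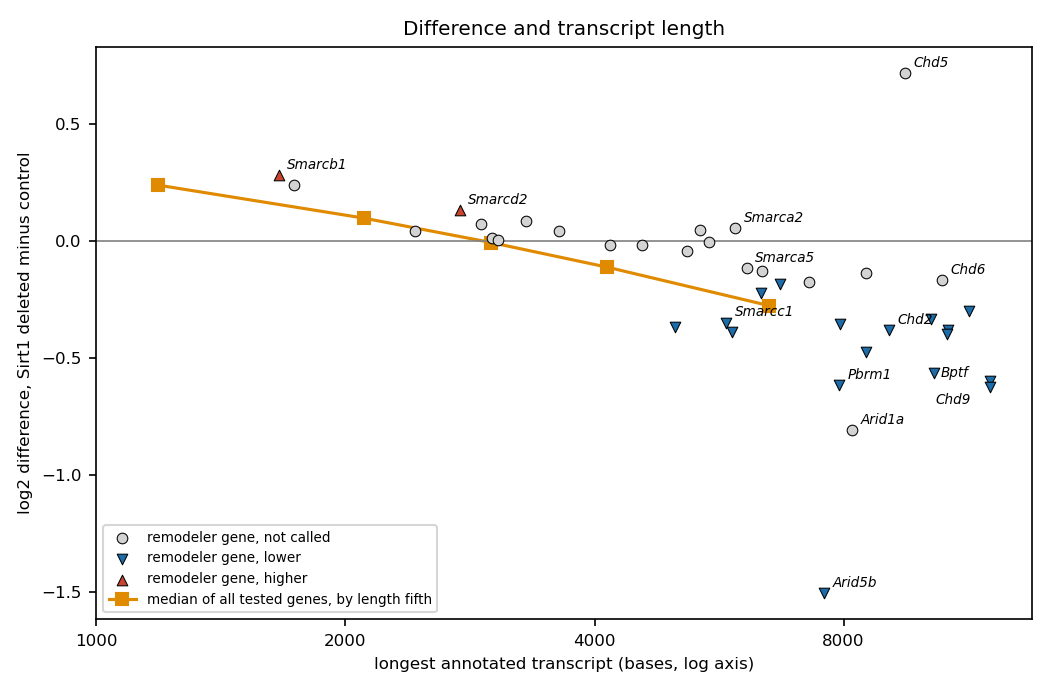
Log2 difference (Sirt1 deleted minus control, y axis) against the length of the longest annotated transcript (x axis, log scale) for the 39 members with a length; squares are the medians of all tested genes in each length quintile. The members descend from Smarcb1 (0.28 at 1660 bases) to Bptf and Chd9 (-0.60 and -0.62 at about 12 kilobases). Other long members lie nearer 0, such as Chd6 (-0.17 at 10515 bases) and Arid1b (-0.30 at 11325). Arid5b, Arid1a (-0.81 at 8187 bases) and Chd5 stand apart from the others.

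Each library had its own trend of level on transcript length. Expressed in log2 units per doubling of length, this slope averaged 0.0805 ± 0.0497 over control and -0.0805 ± 0.0729 over deleted libraries (SD, n = 5). It did not overlap between groups, from 0.00318 up in control and from -0.0187 down in deleted libraries. Slope and group therefore cannot be told apart. When every library was corrected for length and GC content with splines, 3 members were lower (Arid5b, Bptf and Pbrm1) and 5 were higher (Smarca2, Smarca5, Chd5, Chd6 and Chd8), against 6.07% lower and 8.29% higher over all corrected genes. All 8 belong to length quintile 5, where 11% and 12.5% of genes were called. The members' median difference became 0.03, on the other side of 0. The correction uses the longest annotated transcript, so it can be too strong where a shorter one is expressed, and a real difference that runs with length is taken out too.

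Of the SWI/SNF motor genes, neither passed in the deposited values. Smarca4 encodes BRG1 (chromosome 9, 21616169 to 21704230). Control libraries 1 to 5 held 13306, 13515, 12988, 11687 and 11794 normalized counts, and Sirt1 deleted libraries 1 to 5 held 12624, 11601, 11422, 11731 and 10649. The groups overlapped, with means of 12658 ± 859 and 11605 ± 707 (log2 difference -0.12, SE 0.0606, adjusted p = 0.127). Smarca2, which encodes the alternative ATPase BRM (chromosome 19, 26605050 to 26778322), held 2319, 2489.6, 2356, 2234 and 2531 normalized counts in control and 2481, 2440.0, 2533, 2174 and 2804 in deleted libraries. The groups overlapped, with means of 2386 ± 123 and 2486 ± 225 (0.06, adjusted p = 0.537). After correction Smarca2 was called higher (0.29, adjusted p = 0.0415) and Smarca4 was not (0.08, adjusted p = 0.132). Smarca2 has 27 annotated coding transcripts of different lengths, which limits the correction there.

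The core subunit genes went in both directions. Smarcb1 encodes SNF5, a core subunit that contacts the nucleosome (chromosome 10, 75896769 to 75921617). Its control libraries held 3599, 3539.9, 3872, 3647 and 4247 normalized counts, and its deleted libraries 4264, 4622, 4260.2, 4361 and 5576. Every deleted library lay above every control, though control library 5 almost reached the lowest deleted one (0.28, SE 0.079, adjusted p = 0.019). Over all tested genes, 8.28% had deleted libraries wholly above the controls. In length quintile 1, that of Smarcb1, 605 of 2662 tested genes did. Smarcd2, a variant of the BAF60 subunit, rose from 8020.3 ± 171 to 8795 ± 374 (0.13, adjusted p = 0.0423), and its groups did not overlap either. Its paralogs Smarcd1 (0.09, adjusted p = 0.221) and Smarcd3 (0.24, adjusted p = 0.495) did not pass, and Smarcd3 was scarce at 15.7 to 43.2 normalized counts.

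Smarcc1, which encodes the scaffold BAF155, fell from 11964 ± 1019.6 to 9476 ± 1466 (-0.35, adjusted p = 0.0234). Its paralog Smarcc2 (BAF170) stood at 6084 ± 249 and 6019.9 ± 309 (-0.02, adjusted p = 0.831). Smarce1, the gene of the HMG-box subunit BAF57, was at 7157 ± 179 and 7529.5 ± 377 (0.07, adjusted p = 0.257). After correction no core subunit gene was called: Smarcb1 stood at 0.11 (adjusted p = 0.0952), Smarcd2 at 0.06 and Smarcc1 at -0.09. Smarcb1 was not called without control library 1 (0.27, adjusted p = 0.0527) or without control library 2 (0.26, adjusted p = 0.0551). Smarcd2 was called only when the library left out was control 5, deleted 3 or deleted 4, and its adjusted p was 0.0544 to 0.112 without any other library. Smarcc1 was not called without control 1, control 2 or deleted 2 (adjusted p = 0.0609, 0.0633 and 0.0595).

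Of the 6 genes whose subunits set the type of SWI/SNF complex, 3 were lower (Pbrm1, Arid2 and Arid1b) and 3 did not pass (Brd7, Brd9 and Arid1a). The 3 lower genes belong to length quintile 5, where 51% of tested genes were called lower. Pbrm1 encodes polybromo, which reads acetylated histones (chromosome 14, 31019138 to 31121592). Control libraries held 8729.5, 8883, 7651, 7466 and 6345 normalized counts, and deleted libraries 5584, 4926, 5553, 5891 and 3733. All 5 deleted libraries lay below every control (-0.61, SE 0.122, adjusted p = 0.00846), as did those of 8.18% of all tested genes and 24.8% of those in length quintile 5. Pbrm1 remained called after correction, at -0.24 (adjusted p = 0.0151). It was not called in a fit that held the length slope (-0.02) or without the 3 libraries of steepest slope (-0.38). With the slope in the fit limma called 0 genes of the whole table, and without the 3 libraries 2 lower and 1 higher. The lost calls therefore say little about Pbrm1 itself.

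Arid2, the DNA-binding subunit of PBAF (chromosome 15, 96287518 to 96404992), held 7513, 7689, 7627, 6691 and 5859.9 normalized counts in control and 5904, 4996, 5186, 5595 and 3931 in deleted libraries. Deleted library 1 reached into the control range. Arid2 fell by 0.47 on the log2 scale (SE 0.106, adjusted p = 0.00999) and was at -0.11 after correction (adjusted p = 0.182). The third PBAF gene examined, Brd7, stood at 7848 ± 222 and 8096 ± 409 (0.04, adjusted p = 0.506), and Brd9, of noncanonical BAF, at 1781 ± 21.7 and 1840.0 ± 77.1 (0.05, adjusted p = 0.484). The transcripts of these bromodomain genes are shorter (3625 and 2430 bases) than those of Pbrm1 and Arid2 (7907 and 8507).

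Arid1b fell from 2378 ± 226 to 1937 ± 215 (-0.30, adjusted p = 0.0224) and stood at 0.03 after correction. It was not called without control library 1, 2 or 3 (adjusted p = 0.0633, 0.0596 and 0.0524). Arid1a, the gene of the main targeting subunit of canonical BAF (chromosome 4, 133679008 to 133756769), had the largest SE of the members with a control mean above 100 normalized counts. Control libraries held 1339, 1031, 832, 1041 and 1123 normalized counts, and deleted libraries 1082, 662, 759.9, 655 and 229. Deleted library 1 lay among the controls and deleted library 5 far below the rest. The log2 difference of -0.81 had an SE of 0.308 and did not pass (adjusted p = 0.0606; -0.56 and adjusted p = 0.177 after correction). It was called without deleted library 1 (-1.01, adjusted p = 0.0188) and without deleted library 5, where it was smaller (-0.46, adjusted p = 0.0422).

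Per kilobase of longest transcript, the SWI/SNF genes spanned a wide range of levels. In control libraries Smarcd2 stood highest at 2920 normalized counts per kilobase, followed by Smarce1 (2452), Smarcb1 (2278), Brd7 (2165), Smarcc1 (2072) and Smarca4 (1985). From Smarce1 to Smarca4, each gene's range over the control libraries overlapped that of the next. Pbrm1 (988) and Arid2 (832) lay lower, Smarca2 (403), Arid1b (210) and Arid1a (131) lower still, and Smarcd3 (16.8) last. These levels depend on the transcript that is expressed, which the deposited gene values do not show.

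**Figure D3:**
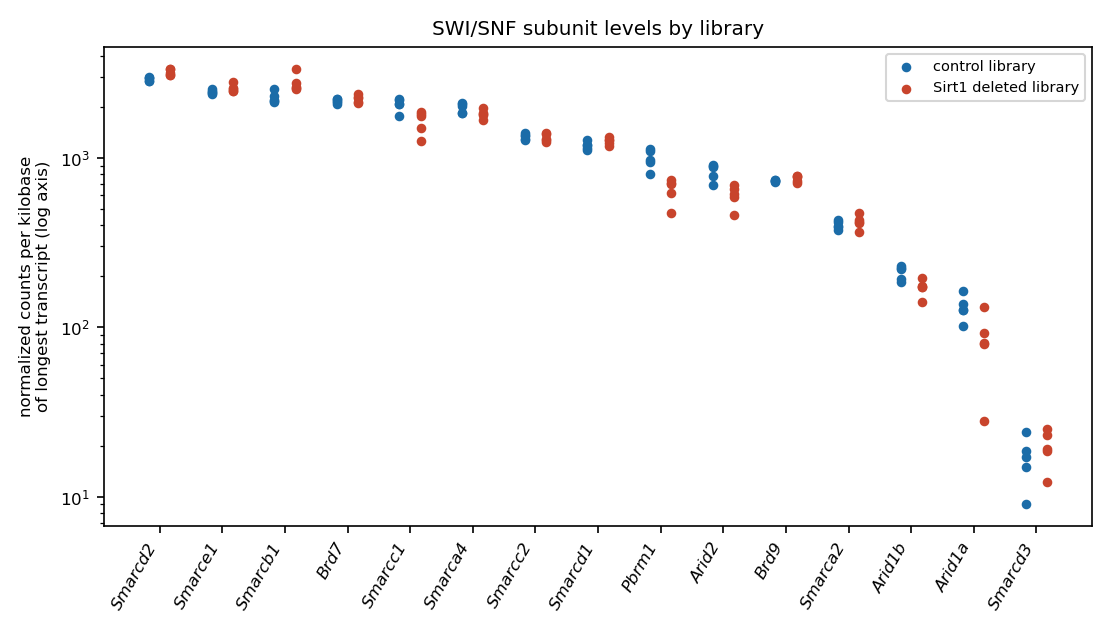
Normalized counts per kilobase of longest transcript (y axis, log scale) for 15 SWI/SNF subunit genes, 1 point per library, control left and Sirt1 deleted right of each tick. Pbrm1 in deleted libraries lies below every control, and Smarcb1 and Smarcd2 lie above. Arid1a spreads widely, from 229 to 1339 normalized counts before division by transcript length.

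In the ISWI group, Bptf fell and Smarca5 did not pass. Bptf encodes the reader subunit of NURF (chromosome 11, 107033081 to 107132127). Control libraries held 7159.7, 7563, 6875, 5859 and 5587 normalized counts, and deleted libraries 5397, 4158, 4417, 4665 and 3326. The groups did not overlap. Bptf kept 66.5% of its control level (-0.60, SE 0.118, adjusted p = 0.0084), and was at -0.23 after correction (adjusted p = 0.0273). When the fit also held the libraries' slopes it was at -0.05 and no longer called, nor was it without the 3 libraries of steepest slope (-0.39). These settings called 0 genes of the whole table, and 2 lower and 1 higher, so the lost calls say little about Bptf itself.

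Smarca5, the gene of the ISWI motor SNF2H (chromosome 8, 80698507 to 80739497), held 10981, 11239, 9809.9, 11188 and 10368 normalized counts in control and 10126, 9379, 11328, 9806 and 8992 in deleted libraries. The groups overlapped, and the difference of -0.11 did not pass (SE 0.0659, adjusted p = 0.198). After correction it was called higher at 0.20 (adjusted p = 0.0238), so the direction turned. With 1 annotated coding transcript, of 6113 bases, Smarca5 leaves no choice of transcript length.

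Among the 10 coding CHD genes, 5 were lower, 0 higher and 5 did not pass. Their median transcript is 8797 bases long, and the share called lower, 50%, lay near the 51% of all tested genes in length quintile 5. All of them but Chd1l, which did not pass, belong to that quintile. After correction 0 were lower and 3 higher, against 6.07% and 8.29% of all corrected genes and 11% and 12.5% in length quintile 5. Chd2, whose protein acts at transcribed genes (chromosome 7, 73426638 to 73541830), held 5388, 5691, 5349, 4574 and 4744 normalized counts in control and 4000.5, 4053, 3928, 4089.7 and 3664 in deleted libraries. The deleted libraries lay close together and below every control (-0.38, SE 0.065, adjusted p = 0.00797). After correction the difference was -0.02 (adjusted p = 0.807). Chd1, its paralog that binds methylated histone H3 (chromosome 17, 15704967 to 15772610), held 4283, 4455, 3999, 4253 and 3767 in control and 3778, 3176, 3307, 3384 and 2663 in deleted libraries. Deleted library 1 lay just above the lowest control, and the difference of -0.35 (adjusted p = 0.0108) became 0.01 after correction.

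Chd4 encodes the main ATPase of NuRD (chromosome 6, 125095981 to 125130591) and was, per kilobase of transcript, the most abundant of the 39 members with a length (3644 normalized counts per kilobase in control libraries). Control libraries held 24754, 26209, 25154, 23133 and 22772 normalized counts, and deleted libraries 23381, 21667, 20918, 21693 and 19822. Only deleted library 1 reached into the control range. Chd4 fell by 0.18 on the log2 scale (SE 0.0587, adjusted p = 0.032) and was at 0.07 after correction. It was not called without control 1, 2 or 3 or deleted 2, 3 or 5 (adjusted p = 0.0529 to 0.0894). Chd3, an alternative NuRD ATPase gene, was at 3081 ± 410.1 and 2723 ± 323 (-0.18, adjusted p = 0.186), and Chd3os at 72.9 ± 13.1 and 63.5 ± 8.96 (-0.19, adjusted p = 0.361).

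Chd5, best known from neurons, was scarce. Control libraries held 9.41, 15.6, 15.9, 27.7 and 26.8 normalized counts, and deleted libraries 25.9, 30.3, 29.3, 27.2 and 38.1, or about 11.1 to 38.8 reads in each of the 10. The groups overlapped, and the difference of 0.72 did not pass (SE 0.273, adjusted p = 0.0589), while after correction it was called at 0.97 (adjusted p = 0.0487). Without the 3 libraries of steepest slope it was 0.29. It was called without control library 4 (0.87, adjusted p = 0.04) or 5 (0.86, adjusted p = 0.0314).

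Of the long CHD6 to CHD9 genes, Chd9 (chromosome 8, 90828352 to 91054516) held 1871, 2104, 1708, 1551 and 1417 normalized counts in control and 1453, 1056, 1057, 1185 and 888 in deleted libraries. It fell by 0.62 on the log2 scale (SE 0.128, adjusted p = 0.00855) and was at -0.23 after correction (adjusted p = 0.0617). Chd7, mutated in CHARGE syndrome, fell from 1617 ± 224 to 1283 ± 166 (-0.33, adjusted p = 0.0332; 0.01 after correction), and was called only when the library left out was control 5, deleted 1 or deleted 3 (adjusted p = 0.0576 to 0.0854 without any other). Chd6 held 3405, 3771, 3479.8, 3083 and 3188 normalized counts in control and 3233, 3000.2, 2929, 2861 and 3029 in deleted libraries. Chd8, a gene linked to autism, held 6392, 6853, 6854, 5815 and 6001 in control and 6197, 5634, 5796, 5524 and 5831 in deleted libraries. Both overlapped between groups and did not pass (-0.17, adjusted p = 0.0523, and -0.14, adjusted p = 0.0881), and both were called higher after correction, at 0.21 and 0.20. As deposited, Chd6 was called lower without control 4, control 5 or deleted 1 (adjusted p = 0.0343 to 0.0416). Chd1l, a remodeler that responds to poly(ADP-ribose), was at 2603 ± 111 and 2628 ± 65.4 (0.01, adjusted p = 0.838).

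The 3 ATPase genes of the INO80 family all fell. All 3 belong to length quintile 5, where 51% of tested genes were called lower. Ep400 encodes the motor of the TIP60-EP400 complex, which exchanges histone H2A.Z (chromosome 5, 110664373 to 110770717). Control libraries held 11046, 11679.6, 10917, 9041 and 9337 normalized counts, and deleted libraries 9414, 7727, 7966, 7929.6 and 6977 (-0.38, SE 0.0876, adjusted p = 0.0108). Srcap, the gene of another H2A.Z exchanger (chromosome 7, 127511983 to 127561219), held 9459, 10369, 9643, 7732 and 7995 in control and 8973, 6659.9, 6303, 6589.9 and 5947 in deleted libraries (-0.40, SE 0.11, adjusted p = 0.0185). In both, deleted library 1 lay inside the control range and the other 4 deleted libraries below it.

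Ino80, the gene of the motor of the INO80 complex (chromosome 2, 119373042 to 119477687), held 2846, 2904, 2822, 2675 and 2623 in control and 2719.6, 2289.7, 2417, 2398 and 2118 in deleted libraries (-0.22, SE 0.0654, adjusted p = 0.0244). After correction none of the 3 was called, at -0.05 for Ep400, -0.08 for Srcap and 0.06 for Ino80, whose direction turned. Srcap was not called without control library 2 (-0.35, adjusted p = 0.0547), nor Ino80 without control 1, 2 or 3 or deleted 2 (adjusted p = 0.0507 to 0.0672).

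Atrx encodes a remodeler that deposits histone H3.3 at repeats with DAXX (chromosome X, 105797615 to 105929403). Control libraries held 10703, 11689, 9127, 9193 and 8187 normalized counts, and deleted libraries 7686, 6341, 7121, 7236 and 4906. The groups did not overlap (-0.56, SE 0.121, adjusted p = 0.00902), and the corrected difference of -0.15 fell just short of the threshold (adjusted p = 0.0512). Smarcad1, whose protein acts at replicated and damaged DNA, was at 2124 ± 153 and 2060.2 ± 139 (-0.04, adjusted p = 0.629). Smarcal1, which encodes an annealing helicase of stalled forks, was at 1421 ± 66.1 and 1426 ± 89.8 (0.00, adjusted p = 0.966).

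Among the ARID genes outside SWI/SNF, Arid5b had the largest called difference of all 40 members. It encodes a DNA-binding partner of the demethylase PHF2 (chromosome 10, 68092520 to 68278740). Control libraries held 55.4, 43.6, 50.5, 47.3 and 30.5 normalized counts, and deleted libraries 13.4, 16.7, 11.4, 16.6 and 18.6. Every deleted library lay below every control, and the group kept 33.7% of the control level (-1.50, SE 0.209, adjusted p = 0.00797). The values rest on about 36.2 to 65.4 reads per control library and 7.03 to 19.0 per deleted library, so counting error is large. The difference was -1.17 after correction (adjusted p = 0.00853). It was -1.51 in a fit that held the length slope and -1.48 without the 3 libraries of steepest slope. Neither of these 2 was called (adjusted p = 0.975 and 0.0655). The slope fit called 0 genes of the whole table, and the omission 2 lower and 1 higher.

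Arid4a and Arid4b encode partners of the SIN3 deacetylase complex. Arid4a (chromosome 12, 71015990 to 71098592) held 1658, 1789, 1530.0, 1597 and 1456 in control and 1413, 1202, 1280.4, 1317 and 1042 in deleted libraries (-0.36, SE 0.0832, adjusted p = 0.0104). Arid4b (chromosome 13, 14063232 to 14199603) held 2089, 2197, 1892, 1999.9 and 1748 in control and 1624, 1555, 1617, 1645 and 1182 in deleted libraries (-0.39, SE 0.094, adjusted p = 0.0122). In both genes the groups did not overlap, and after correction neither passed (-0.13 and -0.09). Arid5a, which encodes a regulator of cytokine RNA stability, was at 1142 ± 37.3 and 1144 ± 91.1 (adjusted p = 0.992). Arid3a and Arid3b, known from B cells and progenitors, were at 205 ± 13.6 and 216 ± 48.4 and at 240.4 ± 14.5 and 246 ± 69.1, and neither passed.

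**Figure D4:**
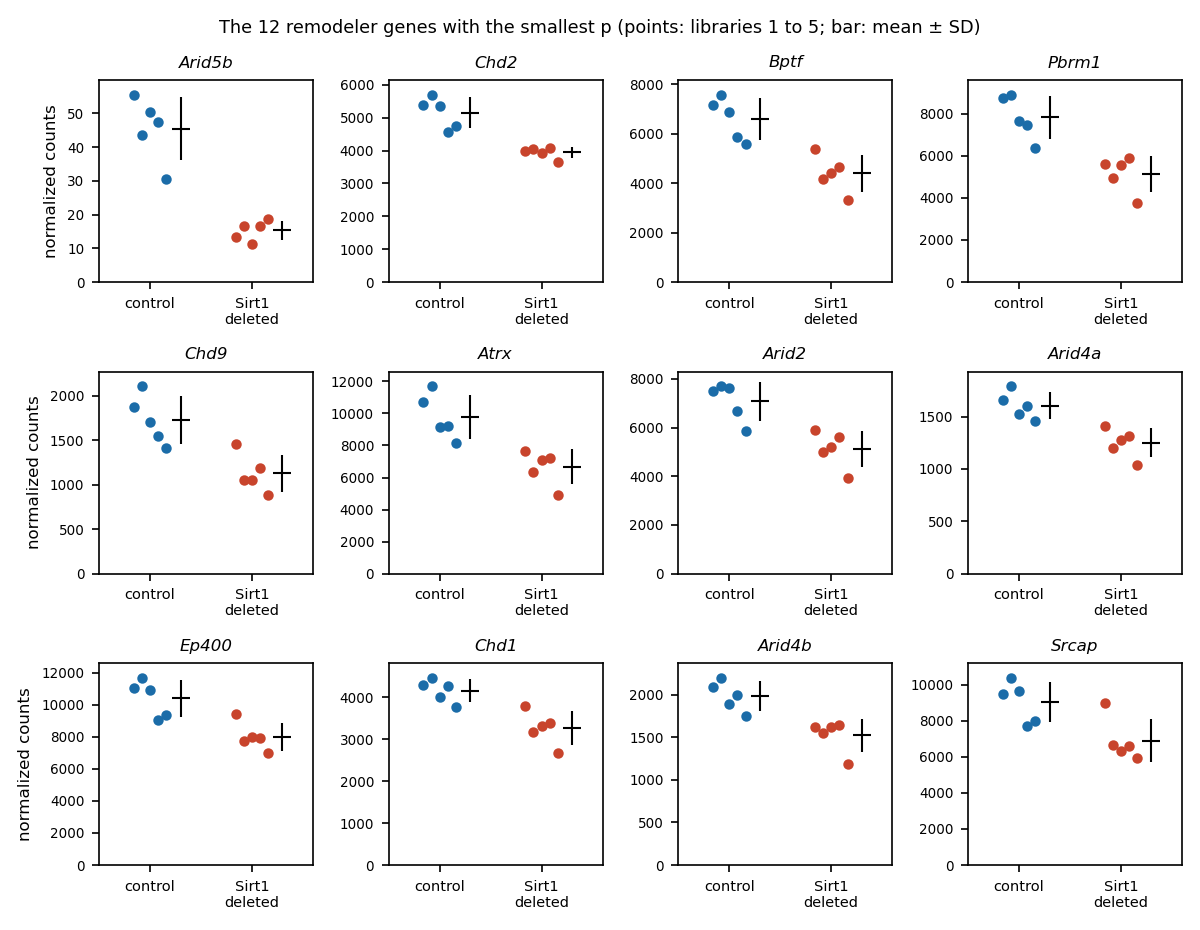
Normalized counts (y axis, from 0) in the 5 control and 5 Sirt1 deleted libraries for the 12 members with the smallest p; the cross marks the mean ± SD. In 7 of the panels (Arid5b, Chd2, Bptf, Pbrm1, Atrx, Arid4a and Arid4b) every deleted library lies below every control, and in the other panels deleted library 1 reaches the control range. These 7 are the only such members, all among the 28 in length quintile 5. Of all tested genes, 8.18% lay wholly below the controls, and of those in length quintile 5, 24.8%.

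The order of libraries recurred from gene to gene. Of the 17 lower members, deleted library 5 was the lowest of its group for 15 and deleted library 1 the highest for 13, while control library 5 was the lowest control for 13 and control library 2 the highest for 14. The same libraries stand at the ends of the length slopes, with 0.125 in control library 2, 0.00318 in control library 5, -0.0187 in deleted library 1 and -0.201 in deleted library 5. Deleted library 1 was at or above the lowest control for 10 of the 17. Without the 3 libraries of steepest slope (control 1, control 2 and deleted 5), all 17 differences kept their sign, with a median of -0.24 against -0.38, and 0 were called. In that setting limma called 3 genes of the whole table, and 3159 had an unadjusted p under 0.05. In a fit that held the length slope, 0 of the 17 were called, 10 stayed below 0 and their median was -0.00 (limma called 0 genes of the table, 589 at an unadjusted p under 0.05). In a fit that held the mean level of the B cell markers, 4.81 ± 0.206 in control and 5.13 ± 0.267 in deleted libraries on the log2 scale, 0 were called, while all 17 stayed below 0 with a median of -0.38 (limma called 1 gene, 3525 at an unadjusted p under 0.05).

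**Figure D5:**
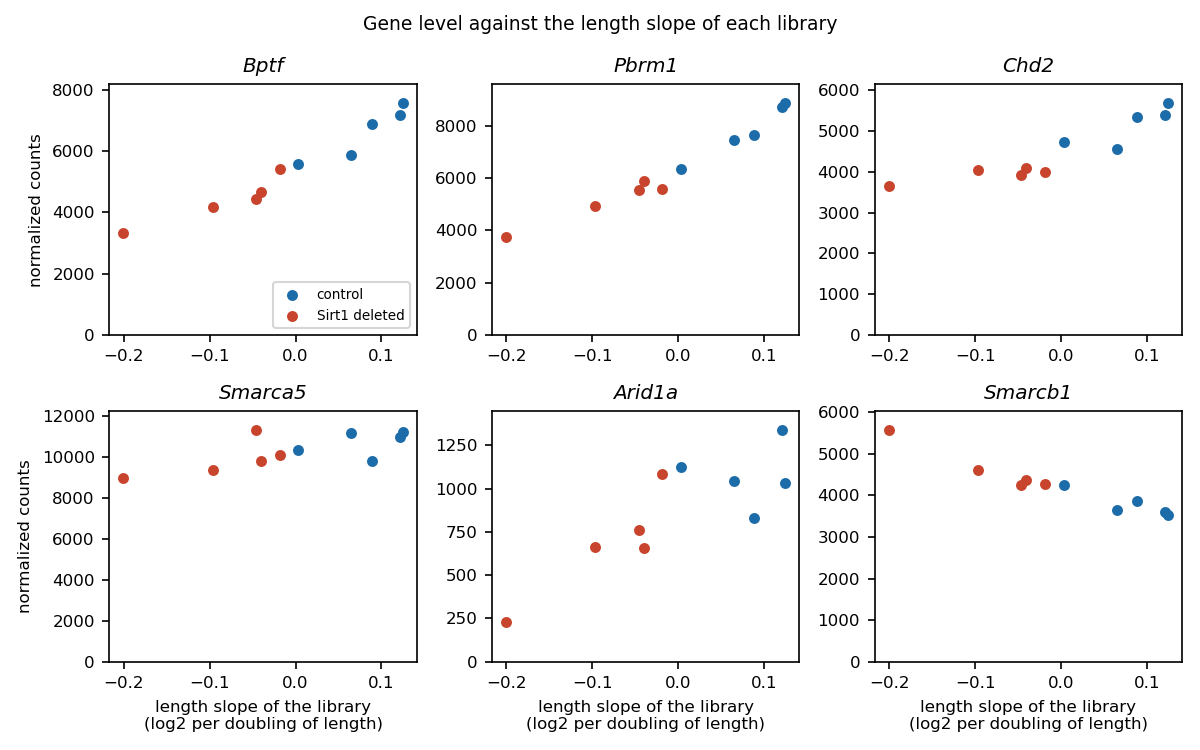
Normalized counts (y axis, from 0) of 6 members against the length slope of each library (x axis, log2 units per doubling of transcript length), 1 point per library. Bptf, Pbrm1 and Arid1a are low and Smarcb1 is high in deleted library 5, the library with a slope of -0.201, and control library 5 (0.00318) and deleted library 1 (-0.0187) stand next to each other.

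Ratios of paralogs within a library were compared as well, since any factor common to both genes cancels in them. Of 8 pairs listed, 7 had both genes tested; Smarca5 to Smarca1 could not be used. None of the 7 passed after adjustment (exact permutation test, two-sided, smallest possible p = 0.00794, Benjamini-Hochberg over the 7). The log2 ratio of Smarcc1 to Smarcc2 went from 0.972 ± 0.0963 to 0.641 ± 0.251 (difference -0.33, exact permutation p = 0.0238, adjusted 0.167). That of Smarca4 to Smarca2 went from 2.41 ± 0.114 to 2.22 ± 0.194 (-0.18, exact permutation p = 0.0873, adjusted 0.259). For Arid1a to Arid1b it went from -1.16 ± 0.283 to -1.67 ± 0.67 (-0.51, exact permutation p = 0.111). Without deleted library 5 the last 2 differences were -0.11 (Smarca4 to Smarca2) and -0.23 (Arid1a to Arid1b). Differences for Chd4 to Chd3 (-0.01), Brd9 to Brd7 (0.00), Arid4a to Arid4b (0.02) and Smarcd1 to Smarcd2 (-0.05) were smaller than the spread of 1 SD within the control group. The genes of a pair differ in length, so these ratios also move with the length slope.

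Genes of other subunits of the same complexes (6 lists) and of other SNF2-type ATPases (1 list), none of them members, were examined as partners. Of 83 such genes tested, 21 were lower, 14 higher and 48 did not pass, with a median of -0.05. Over all genes tested, 17.5% were lower and 14.5% higher. Of the 27 in length quintile 5, 15 were lower and 0 higher (55.6% lower against 51%). Of 8 partners of ISWI, 5 were lower and 1 was higher, among them Baz2a (7250.5 ± 651 to 5541 ± 299.7, -0.38, adjusted p = 0.00797) and Baz1a (4188 ± 282 to 3126 ± 453, -0.43, adjusted p = 0.0091). The list's median transcript is 7194 bases long, and 51% of all tested genes in length quintile 5 were called lower. After correction 0 of the 8 were lower and 1 was higher, with Baz2a at -0.07 (adjusted p = 0.354) and Baz1a at -0.14 (adjusted p = 0.0819). The other SNF2-type ATPase genes were lower for 7 and higher for 0 of 12, among them Rad54l2 (-0.56; -0.23 and still called after correction) and Btaf1, which encodes a TBP-removing ATPase (-0.46; -0.11 and not called after correction). The median transcript of this ATPase list is 5128.5 bases long, within length quintile 5, where 51% of tested genes were called lower. Not all of its lower genes are that long. Ercc6l2 and Rad54l belong to quintile 3, where 8.39% of tested genes were called lower, and Ttf2 to quintile 4, where 24% were. After correction 1 of the 12 was lower and 1 higher. Of all 83 partners, 4 were then lower and 11 higher, against 6.07% and 8.29% of all corrected genes.

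In NuRD, 1 of 12 partner genes was lower and 3 were higher, against 17.5% lower and 14.5% higher over all genes tested. The lower one, Gatad2b, which encodes the scaffold p66-beta, fell from 1584 ± 338 to 792 ± 245 (-1.03, SE 0.212, adjusted p = 0.00855; -0.70 and adjusted p = 0.0157 after correction), and the deacetylase recruiter Cdk2ap1 rose by 0.23 (-0.03 after correction). In a fit that held the length slope, where 0 genes of the whole table were called, Gatad2b was at -0.00046 and not called. Yeats4, the reader GAS41 of TIP60 and SRCAP, rose from 1867 ± 144 to 2384 ± 142 (0.35, adjusted p = 0.00797; 0.17 and adjusted p = 0.0227 after correction), Znhit1 of SRCAP by 0.44 and Tfpt of INO80 by 0.29. Znhit1 and Tfpt were not called after correction (0.10, adjusted p = 0.185, and 0.01, adjusted p = 0.932). The TIP60-EP400 and SRCAP list held 5 higher and 2 lower of 15, and the INO80 list 3 higher and 2 lower of 13. Their median transcripts (2154 and 2312 bases) fall in length quintile 2, where 18% of all tested genes were called higher, against 40.8% in quintile 1. All higher genes of the first list (Dmap1, Mrgbp, Vps72, Yeats4 and Znhit1) belong to quintile 1. So do Ino80b and Tfpt of the INO80 list, while its other higher gene, Ruvbl2, belongs to quintile 2. After correction 3 of the 15 and 1 of the 13 were higher and 0 lower. In INO80 the long Ino80d fell by 0.39 and stood at 0.01 after correction.

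Of 14 BAF and PBAF partners, 1 was lower (Ss18, -0.24, at -0.08 and not called after correction, nor called without control 1, control 2 or deleted 2) and 1 higher (Bcl7c, 0.42, which stood at -0.12 after correction). Of 9 partners of ATRX and of histone H3.3 deposition, 3 were lower, among them Ubn2 (-0.50) and Ubn1 (-0.38) of the HIRA complex, and 1 was higher. As deposited, 17.5% of all genes tested were called lower and 14.5% higher. After correction neither Ubn2 (-0.09) nor Ubn1 (-0.13) was called. Of the 9, 1 was then lower, Daxx (-0.17, adjusted p = 0.0315). Then higher were 2, Asf1a (0.34, adjusted p = 0.0235), also higher as deposited, and H3f3a (0.19, adjusted p = 0.0374). Of the 14 BAF and PBAF partners 1 was lower and 1 higher after correction. Over all corrected genes, 6.07% were lower and 8.29% higher.

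RefSeq promoters (GRCm38.p6) were found for 31 of the 40 genes, with 38 start sites in all. Those of the 3 genes that were lower both with and without correction, and of Smarcb1, are shown to compare genes that moved in opposite directions. Each line gives the 250 bases before the annotated start, 5′ to 3′ on the gene's strand, in lower case, with matches to the motifs named below in capitals.
Arid5b promoter (chr10:68278727-68278976, minus strand): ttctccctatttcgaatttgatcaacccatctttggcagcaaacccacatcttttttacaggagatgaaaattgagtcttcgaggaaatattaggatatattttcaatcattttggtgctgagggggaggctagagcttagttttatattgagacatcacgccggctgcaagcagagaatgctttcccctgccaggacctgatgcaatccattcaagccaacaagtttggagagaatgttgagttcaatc
Bptf promoter (chr11:107132148-107132397, minus strand): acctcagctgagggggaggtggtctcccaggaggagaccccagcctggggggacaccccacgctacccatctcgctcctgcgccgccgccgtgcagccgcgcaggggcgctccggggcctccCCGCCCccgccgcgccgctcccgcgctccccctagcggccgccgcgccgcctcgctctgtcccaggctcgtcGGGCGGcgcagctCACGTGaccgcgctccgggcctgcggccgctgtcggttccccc
Pbrm1 promoter (chr14:31018888-31019137, plus strand): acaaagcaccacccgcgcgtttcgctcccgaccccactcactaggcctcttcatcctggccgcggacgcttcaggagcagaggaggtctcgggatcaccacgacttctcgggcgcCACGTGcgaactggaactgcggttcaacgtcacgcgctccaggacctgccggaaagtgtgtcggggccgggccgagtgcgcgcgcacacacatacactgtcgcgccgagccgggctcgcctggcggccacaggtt
Smarcb1 promoter (chr10:75921615-75921864, minus strand): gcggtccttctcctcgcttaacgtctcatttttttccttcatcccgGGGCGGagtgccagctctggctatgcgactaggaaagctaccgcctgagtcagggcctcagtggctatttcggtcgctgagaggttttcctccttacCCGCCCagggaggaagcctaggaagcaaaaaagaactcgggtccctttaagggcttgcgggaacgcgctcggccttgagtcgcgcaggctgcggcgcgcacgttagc
The Arid5b stretch has a GC content of 42% and held none of the motifs. That of Bptf, at 79.2% GC, held 2 GC boxes and an E-box, that of Pbrm1 an E-box, and that of Smarcb1 2 GC boxes. Thus an E-box (CACGTG, a sequence that MYC and related factors can bind) occurs in 2 of the 3 promoters shown for lower genes. Those 3 genes were picked from 17 members lower as deposited. No other of the 38 member start sites held an E-box (5.26%, against 6.02% of all 32817 start sites). The GC box (GGGCGG) was present at 73.7% of member start sites and 32.7% of all. Median GC content was 67.2% and 52.4%, and whether the share of GC boxes differs at matched GC content was not tested. The CCAAT box (CCAAT) was present at 23.7% and 33.8%. The ETS (CCGGAAGT), YY1 (ATGGCGGC) and CRE (TGACGTCA) sequences occurred at 0 of the 38 and at 2.88%, 1.03% and 1.55% of all. Both strands were searched; E-box and CRE sequences read the same on both, and none of the sequences contains another. A match describes the letters only.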

How the data were processed

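Per the labels' protocols, red cells were lysed in spleen cell suspensions and stranded libraries were made from total RNA. The submitters' processing notes name kallisto 0.44.0, DESeq and mm10. The authors deposited the signal per gene as normalized counts (16865 genes, 10 libraries, 0 columns left out); annotation and gene-level steps are not given in the sources used here. Of values under 6, 85% to 92.1% lay within 0.1 of a multiple of 1 step, too few to recover whole reads, so no count model was used. Each total divided by its step gave the estimated depth. Low members carry a large counting error.

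Genes with 10 or more in at least 5 libraries (13567) entered limma-trend (limma 3.58.1, R 4.3.3) as log2(value + 1), 5 control against 5 Sirt1 deleted libraries, without covariates. Adjusted p-values are Benjamini-Hochberg over all these genes, two-sided, called at 0.05. GENCODE M21 (GRCm38) gave positions and, for 13304 genes, the longest coding transcript (or the longest of any kind where a gene has none), whose length and GC content were used. The correction removed natural splines with 5 degrees of freedom on both from each library. Alternatives were pseudocounts of 0.5 and 5, no filter, a minimum of 50, TMM factors computed from their formula, quantile normalization, this correction, the length slope or the mean B cell marker level as a covariate, and omission of each library or of the 3 of steepest slope. The fits were tested on simulated libraries.

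Members and lists were chosen with earlier results of these data known. Values per library are given for the 12 members with the smallest p and for 1 catalytic subunit of each family. They are also given for members called only after the correction. Of each partner list, the 2 genes with the smallest p are named. Other partners are named only for their length quintile or for a call after correction. Smarcb1 and Arid1a were shown in full after their values were seen. Replicate numbers follow the order of the series and pair nothing. Of the 8 ratios planned, 7 could be computed. Python 3.11.15, pandas 2.3.3 and scipy 1.17.1 made the tables.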

Additional observations from a re-analysis of the deposited data

Results flagged for a closer look

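Of 122 groups of 5 values examined, 9 held a library far from the others of its group (a gap of more than 0.71 of the whole range); chance alone flags about 1 group in 20. In deleted library 5, Arid4b stood at 1182 normalized counts (others 1555 to 1645), Chd3os at 48.1 (65.3 to 71.6), Smarcb1 at 5576 (4260.2 to 4622) and the partner gene Cdk2ap1 at 15561 (13313 to 13950.5). In deleted library 1, Srcap stood at 8973 (5947 to 6659.9), Chd7 at 1569 (1166 to 1273) and Arid3a at 299 (181 to 211). In control library 5, the partner gene Yeats4 stood at 2122 (1780.0 to 1835) and the log2 ratio of Smarcc1 to Smarcc2 at 0.805 (0.982 to 1.05). These 3 libraries are those with the steepest slope on transcript length (deleted library 5, -0.201) and the flattest of each group (-0.0187 and 0.00318); the part of the slope in these values was not tested.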

How the results depend on the processing

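No paired analysis was possible because no label ties a control to a deleted library. Pseudocounts of 0.5 and 5, a minimum of 50 and TMM factors left 17 members lower and 2 higher (with the minimum of 50, Arid5b was not tested and Chd6 was called); without the filter 17 were lower and 1 higher, and after quantile normalization 17 and 3. The length and GC correction gave 3 lower and 5 higher members, 4 lower partners, and a members' median of 0.03, which reversed. With the length slope or the B cell markers in the fit, and without the 3 libraries of steepest slope, 0 members and 0 partners were called in either direction; the median was -0.00266, -0.19 and -0.11. In these settings limma called 0, 1 and 3 genes of the table, against 589, 3525 and 3159 at an unadjusted p under 0.05. The 17 lower members had median differences of -0.00, -0.38 and -0.24 there, so with the B cell markers the calls ended while the differences stayed near their size. The covariates cost a degree of freedom and the omission 3 libraries; the cause was not tested further. Leaving out single libraries gave 11 (without control library 2) to 19 lower and 0 to 3 higher members, 10 to 22 lower and 8 to 17 higher partners, and a median of -0.20 to -0.12.

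Differences that changed sign, as log2 values, were these. After the correction: Chd1 0.00800, Arid1b 0.0318, Ino80 0.0597, Chd4 0.0694, Chd7 0.00884, Chd6 0.21, Chd8 0.20, Smarca4 0.0794, Chd3 0.0561, Smarca5 0.20, Smarcad1 0.21, Smarcc2 0.0946, Arid3b 0.0554, Arid5a 0.17, Bcl7c -0.12, Cdk2ap1 -0.0309, Ino80d 0.0100, Chd4 to Chd3 ratio 0.0133, Brd9 to Brd7 ratio -0.11, Arid4a to Arid4b ratio -0.0477. With the length slope in the fit: Atrx 0.0185, Arid2 0.0281, Arid4b 0.0238, Smarcb1 -0.0577, Arid1b 0.0484, Smarcc1 0.14, Ino80 0.0172, Chd7 0.0231, Chd5 -0.0897, Arid1a 0.41, Smarca4 0.0785, Chd3 0.26, Smarca5 0.0532, Smarce1 -0.0550, Chd3os 0.20, Brd9 -0.0253, Smarcd3 -0.22, Brd7 -0.0468, Smarca2 -0.11, Smarcc2 0.0435, Arid3b 0.00551, Smarcal1 -0.0164, Arid5a 0.0206, Ss18 0.0289, Ubn2 0.00149, Ubn1 0.0741, Btaf1 0.0319. With the B cell markers: Smarcal1 -0.0661. With TMM factors: Arid5a 0.00835. After quantile normalization: Smarcad1 0.00308, Smarcc2 0.050, Arid5a 0.0290, Brd9 to Brd7 ratio -0.00685. Without the 3 steepest libraries: Chd3 0.0149, Smarcd3 -0.0437, Smarcc2 0.0261, Arid5a 0.00345, Arid4a to Arid4b ratio -0.00957. On leaving out single libraries these spanned 0: Arid3a -0.0753 to 0.10, Smarcc2 -0.0368 to 0.00443, Chd1l -0.0115 to 0.0289, Arid3b -0.14 to 0.14, Smarcal1 -0.0254 to 0.0313, Arid5a -0.0429 to 0.0338, Chd4 to Chd3 ratio -0.0428 to 0.0318, Brd9 to Brd7 ratio -0.0193 to 0.0222, Arid4a to Arid4b ratio -0.00277 to 0.0445. The cause of the other changes was not tested. Ratios were not run with a filter, TMM factors or a covariate. Depth limits Arid5b, Chd5, Smarcd3 and Chd3os.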
